A study of Mus musculus with 6 samples.

Results

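The 9 genes described here encode the laminin chains and integrin subunits with which epithelial cells hold on to the basement membrane. They were taken by name from a table of 18988 gene rows, and all 9 (Lama3, Lamb3, Lama5, Itga2, Itga3, Itga6, Itgb1, Itgb4 and Itgb6) were present, each on 1 row. Total RNA from the stomach corpus, the main acid-producing region, was sequenced in 6 C57BL/6 mice. There were 3 control mice with the genotype Ras;APC FF (replicates 1 to 3) and 3 mice with the genotype PGC;Ras;APC FF (replicates 4 to 6, called the PGC group), with 1 mouse per library. Both groups carried the Ras and APC FF components, and PGC was the component by which they differed. The labels spell out neither PGC nor FF, and name no promoter, age, sex or time of induction. The question addressed is how these adhesion genes differ once PGC is combined with the other components, in a series on gastric cancer.

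Laminins are cross-shaped proteins of the basement membrane, each built from 1 alpha, 1 beta and 1 gamma chain. Integrins are surface receptors built from 1 alpha and 1 beta subunit, and only the pair reaches the cell surface. In epithelia, the laminin that holds Lama3 and Lamb3 is the anchoring laminin of hemidesmosomes, the adhesion plaques tied to keratin filaments, and the pair of Itga6 and Itgb4 is its receptor there. Itgb1 pairs with Itga2 in a receptor mainly for collagen, and with Itga3 or Itga6 in receptors for laminin. Itgb6 pairs with Itgav in an epithelial receptor that binds and activates latent TGF-beta. Lama5 is the alpha chain of the laminins found most widely in adult epithelial basement membranes.

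The genes lie on 6 chromosomes of the mouse genome (build mm10 for the files, coordinates from GENCODE M21 on the same assembly) and are long and many-exoned. Lama3 lies at 12333819 to 12583013 of chromosome 18 on the plus strand, with 75 exons in its longest coding transcript. Lamb3 lies at 193207699 to 193343878 of chromosome 1 (plus strand, 23 exons) and Lama5 at 180176373 to 180225859 of chromosome 2 (minus strand, 79 exons).

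Itga2 lies at 114833081 to 114932100 of chromosome 13 (minus strand, 30 exons), Itga3 at 95044474 to 95076801 of chromosome 11 (minus strand, 26 exons) and Itga6 at 71745616 to 71858416 of chromosome 2 (plus strand, 26 exons). Itgb1 lies at 128685654 to 128733200 of chromosome 8 (plus strand, 16 exons), Itgb4 at 115974709 to 116008412 of chromosome 11 (plus strand, 39 exons) and Itgb6 at 60598292 to 60722643 of chromosome 2 (minus strand, 15 exons). The coding length of Itgb4, 5454 bp, exceeded that of Itgb1 (2394 bp) and Itgb6 (2361 bp). The added length encodes a long cytoplasmic tail, through which the β4 subunit reaches the keratin network. Exons of opposite-strand genes covered 7.66% of the exonic bases of Itgb4 and 1.83% of those of Lama3. Whether counting used strand is not given in the sources used here, so reads there cannot be assigned to 1 strand.

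Promoter windows (250 bases before to 50 after a transcription start, RefSeq, GRCm38.p6, first-listed start of each gene) were held for 6 of the 9 genes, and Lama3, Itga6 and Itgb4 had none in that table. The windows of the 3 of these 6 genes with the largest ratio between groups (Itga2, Lama5 and Itga3) are shown with that of Lamb3, which differed less between groups. Capitals mark GC boxes (GGGCGG on either strand).
Itga2, chr13:114932051-114932350, minus strand: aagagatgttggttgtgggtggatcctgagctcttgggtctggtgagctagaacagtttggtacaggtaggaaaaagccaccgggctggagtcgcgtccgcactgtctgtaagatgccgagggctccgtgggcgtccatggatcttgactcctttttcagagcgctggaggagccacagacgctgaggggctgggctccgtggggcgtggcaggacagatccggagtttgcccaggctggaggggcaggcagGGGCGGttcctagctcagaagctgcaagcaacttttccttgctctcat
Lama5, chr2:180225810-180226109, minus strand: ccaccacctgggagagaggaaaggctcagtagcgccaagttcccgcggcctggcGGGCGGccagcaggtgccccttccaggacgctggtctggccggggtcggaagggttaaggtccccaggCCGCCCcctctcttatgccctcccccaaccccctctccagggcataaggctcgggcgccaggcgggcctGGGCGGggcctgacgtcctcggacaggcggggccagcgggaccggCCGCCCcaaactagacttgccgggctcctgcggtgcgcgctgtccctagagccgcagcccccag
Itga3, chr11:95076665-95076964, minus strand: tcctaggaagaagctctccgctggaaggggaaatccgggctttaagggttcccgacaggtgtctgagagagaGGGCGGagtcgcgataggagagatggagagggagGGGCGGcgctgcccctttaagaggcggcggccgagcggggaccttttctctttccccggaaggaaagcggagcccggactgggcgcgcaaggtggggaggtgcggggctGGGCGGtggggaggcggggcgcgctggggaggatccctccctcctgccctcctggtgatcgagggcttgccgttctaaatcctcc
Lamb3, chr1:193301744-193302043, plus strand: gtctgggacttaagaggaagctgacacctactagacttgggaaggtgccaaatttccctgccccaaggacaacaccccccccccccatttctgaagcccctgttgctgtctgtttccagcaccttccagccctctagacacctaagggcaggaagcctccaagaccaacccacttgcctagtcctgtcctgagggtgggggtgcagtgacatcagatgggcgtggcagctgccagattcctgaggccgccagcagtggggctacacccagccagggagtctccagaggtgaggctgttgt
GC boxes were found in 4 of the 6 windows, against 35.9% of 27025 windows of the same length over all genes. Lama5 held 4, Itga3 held 3, and Itga2 and Itgb1 held 1 each, while Lamb3 and Itgb6 held 0. The AP-1 motif TGANTCA (7.93% of all windows), the TCF/LEF motif CTTTGAA (5.27%) and the TATA box TATAAA (14.2%) were found in 0 of the 6, on either strand. The TEAD motif GGAATG (14.6% of all windows) was found once, in Itgb1. The motifs searched overlapped at no match in these windows. GC content was 72.7% for Lama5, 67.3% for Itgb1, 66.7% for Itga3, 59.3% for both Lamb3 and Itga2 and 50.3% for Itgb6, against a median of 52.7% over all windows. Lamb3 held 2 CG dinucleotides and Lama5 24, against a median of 7. Such matches describe these letters only.

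Values are FPKM, fragments scaled for gene length and library size, as deposited, so that levels can be compared between genes. Summed FPKM ranged from 664821 to 804774 per library, and the number of reads is unknown. The 3 most abundant genes, Pgc, Clps and Tff1, took 38.0% to 43.5% of summed FPKM in controls, 31.4% and 31.0% in replicates 4 and 5 and 14.3% in replicate 6. Replicate 6 was the highest of the 6 libraries for 68.4% of the 11857 genes tested. The corpus markers Atp4a and Atp4b, subunits of the proton pump of parietal cells, stood at 428 and 723 FPKM in replicate 6 and at 1768 to 4614 FPKM in the other libraries, so that all 6 libraries carried the labelled tissue's markers. Control replicate 3 alone had reads of the Y-linked gene Eif2s3y (13.15 FPKM), with Xist at 0, while the other 5 had Xist at 3.58 to 6.19 and Eif2s3y at 0. Sex thus differed among controls and was not balanced between the groups.

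Of the 9 genes 8 were higher in all 3 PGC libraries than in any control, and Itgb6 was the exception. Among the genes tested it held for 7 of the 8 and for 42.7% of all genes, and the difference between these shares was not tested. The largest ratios between group means were those of Itga2 (19.4), Lama3 (4.41), Lama5 (2.75), Itga3 (2.28) and Itgb4 (2.21). Those of Itga6 (1.50), Lamb3 (1.49), Itgb6 (1.41) and Itgb1 (1.23) were smaller. Without replicate 6 the ratio was 8.91 for Itga2, 3.66 for Lama3, 1.69 for both Lama5 and Itgb4, 1.67 for Itga3 and 0.963 for Itgb6. With all 6 libraries none of the 8 genes tested passed the adjusted threshold of 0.05 (limma, Benjamini-Hochberg over 11857 genes). By the same test 0.11% of all genes were higher (13 genes) and 5 genes were lower. At an unadjusted limma p under 0.05, 6 of the 8 were higher, against 31.8% of all genes. The median log2 change of the 8 was 0.75, beside 0.26 for all genes tested.

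**Figure D1:**
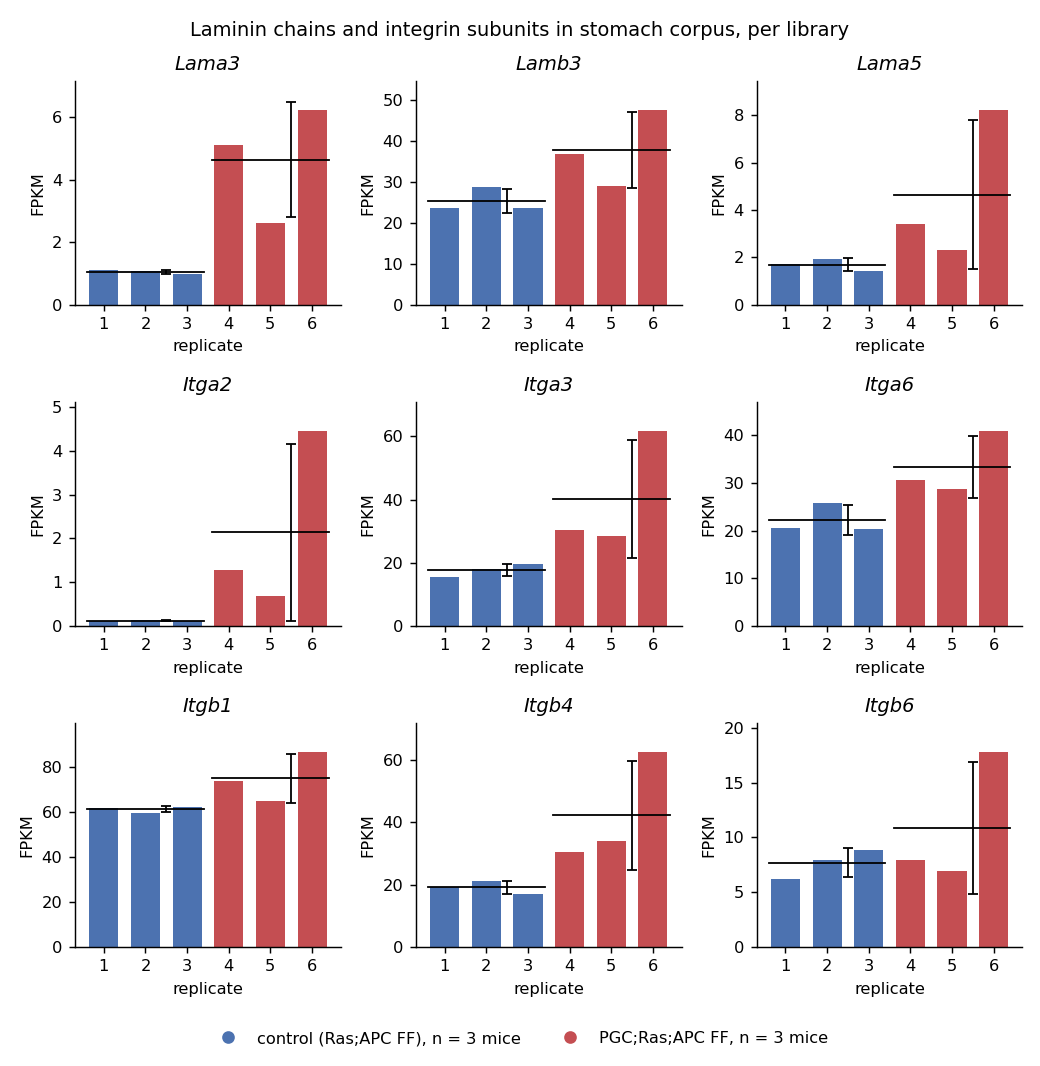
FPKM of each of the 9 genes (vertical axes, each from 0) in the 6 libraries (horizontal axes, replicate number). Bars are single mice, blue for control and red for PGC;Ras;APC FF, black lines are group means and error bars their SD (n = 3). Replicate 6 holds the highest bar in all 9 panels, and the groups overlap in the Itgb6 panel only.

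Among the ligands, Lama3, the alpha chain that gives the hemidesmosomal laminin its integrin-binding end, was at 1.11, 1.07 and 0.98 FPKM in control replicates 1 to 3 and at 5.10, 2.61 and 6.23 in replicates 4 to 6. The control values lay close together, and all PGC values lay above them, replicate 5 being the lowest. Its log2 change was 1.40 ± 0.25 (SE, 95% interval 0.83 to 1.97, limma adjusted p = 0.0850), rank 61 of 11857 genes by p and 191 by size. Lamb3, the beta chain of the same laminin, gave 23.64, 28.80 and 23.66 FPKM in the control libraries, against 36.89, 28.96 and 47.56 in the PGC group. Replicate 5 lay just above control replicate 2, and the log2 change was 0.54 ± 0.19 (95% interval 0.08 to 0.99, limma adjusted p = 0.109). Lama5 was at 1.72, 1.93 and 1.42 FPKM in controls, against 3.40, 2.32 and 8.21 in the PGC group, with replicate 6 far above the others. Its log2 change was 0.93 ± 0.34 (95% interval 0.14 to 1.72, limma adjusted p = 0.110).

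Among the integrin alpha subunits, Itga2, which pairs with Itgb1 to bind collagen, was nearly absent from controls. It was at 0.11, 0.12 and 0.10 FPKM there and at 1.28, 0.68 and 4.45 in the PGC group. It reached 1 FPKM in 2 libraries only and so was not among the genes tested. In a fit with no filter on low values its log2 change was 1.31 ± 0.41 (95% interval 0.31 to 2.31, limma adjusted p = 0.149 over 18988 rows). Itga3, whose pair with Itgb1 binds laminins of the α3 and α5 kind, was at 15.53, 17.83 and 19.50 FPKM in controls, against 30.45, 28.51 and 61.64 in the PGC group. Replicates 4 and 5 lay close together and replicate 6 stood apart, with a log2 change of 1.06 ± 0.28 (95% interval 0.41 to 1.72, limma adjusted p = 0.0853). Itga6, the alpha partner of Itgb4 and of Itgb1, was at 20.53, 25.75 and 20.36 FPKM in controls, against 30.54, 28.83 and 40.86 in the PGC group. The gap between groups was narrower than for Itga3, with a log2 change of 0.56 ± 0.17 (95% interval 0.16 to 0.96, limma adjusted p = 0.0935).

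Among the beta subunits, Itgb4, the hemidesmosomal one, was at 19.39, 21.21 and 16.88 FPKM in controls, against 30.45, 34.12 and 62.53 in the PGC group. It was the only one of the 9 genes for which replicate 5 was not the lowest PGC library, and its log2 change was 1.04 ± 0.26 (95% interval 0.43 to 1.64, limma adjusted p = 0.0850). Itgb1, the common partner of many alpha subunits in all tissue layers, was the most abundant of the 9 genes. It was at 61.84, 59.42 and 61.89 FPKM in controls, against 73.64, 64.61 and 86.29 in the PGC group. Its log2 change of 0.28 ± 0.15 (95% interval -0.06 to 0.62, limma adjusted p = 0.196) was close to the median of all genes tested. Itgb6 was at 6.23, 7.97 and 8.87 FPKM in controls, against 7.92, 6.89 and 17.75 in the PGC group. Replicates 4 and 5 lay within the range of the controls, and only replicate 6 lay above it. The log2 change of Itgb6 was 0.35 ± 0.32, with an interval (-0.39 to 1.08) that holds both no change and a doubling (limma adjusted p = 0.424).

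The call on these genes turned on single libraries. Without replicate 6, Lama3 (log2 change 1.19 ± 0.21, limma adjusted p = 0.0337), Itga3 (0.72 ± 0.12, 0.0328) and Itgb4 (0.73 ± 0.13, 0.0337) rose, 3 of the 8 genes tested, where 7.17% of all genes did. The other 5 did not pass. Lama5 went from 0.93 to 0.51 and Itgb6 was at -0.04 (95% interval -0.39 to 0.31). Without replicate 5, Lama3 (1.69, limma adjusted p = 0.00328) and Itga3 (1.26, 0.0499) rose, 2 of 8 against 3.54% of all genes. Leaving out any of the other 4 libraries left 0 of 8 past the threshold, with 4 or 5 of 8 higher at an unadjusted limma p under 0.05, against 16.9% to 30.0% of all genes. After median-of-ratios scaling, which brought the median of all genes to -0.0027, Lama3 was at 1.19, Itga3 at 0.76, Itgb4 at 0.74 and Lama5 at 0.70, whereas Itga6 was at 0.26, Lamb3 at 0.23, Itgb6 at 0.07 and Itgb1 at -0.03, none past the threshold. Among all genes called, 72.2% were higher on the deposited scale and 47.4% after this scaling.

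**Figure D2:**
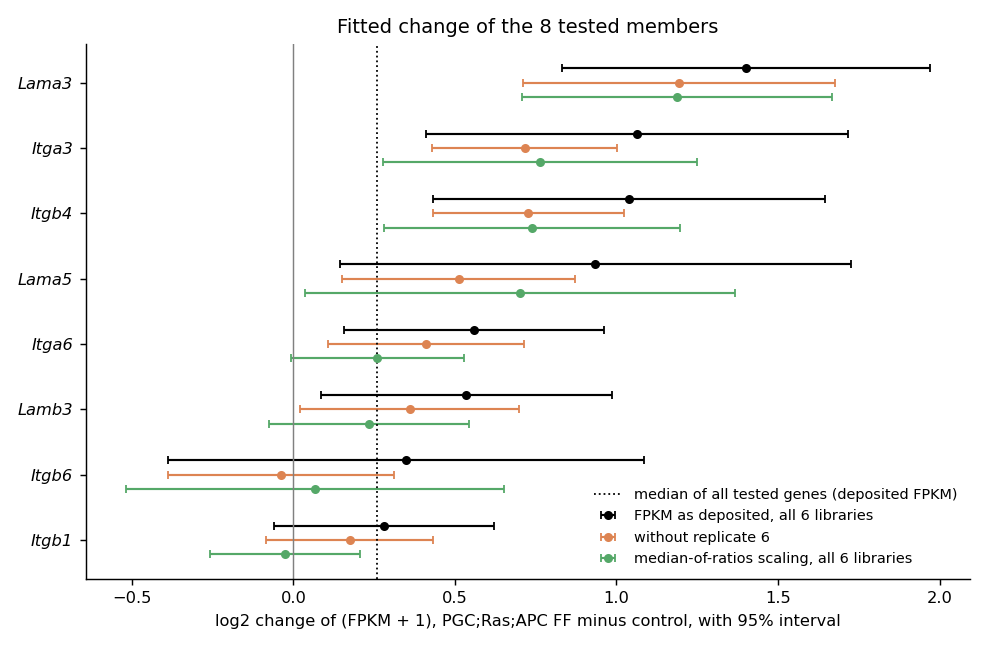
Log2 change of FPKM + 1 between the groups (horizontal axis, PGC;Ras;APC FF minus control) for the 8 genes tested, with 95% intervals from limma, for the deposited FPKM (black), without replicate 6 (orange) and after median-of-ratios scaling (green). The intervals of Lama3, Itga3, Itgb4 and Lama5 lie above 0 in all 3, and those of Itgb1 and Itgb6 include 0 in all 3. The dotted line is the median of all genes tested on the deposited scale, 0.26.

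The order of levels differed between the groups. In controls it ran from Itgb1 (61.0 FPKM, mean) over Lamb3 (25.4), Itga6 (22.2), Itgb4 (19.2), Itga3 (17.6), Itgb6 (7.69), Lama5 (1.69) and Lama3 (1.05) to Itga2 (0.11). The ranges of neighbours overlapped from Lamb3 through Itga3 and were apart elsewhere. In the PGC group Itgb4 (42.4) and Itga3 (40.2) stood next after Itgb1, above Lamb3 (37.8) and Itga6 (33.4), though the ranges of these 4 genes again overlapped from neighbour to neighbour. Lama3 and Lama5 were level there, at 4.65 and 4.64 FPKM, and the range of Itga2 (0.68 to 4.45) overlapped that of Lama5. As profiles over the 6 libraries, Lamb3 and Itga6 were the closest pair among the 8 genes, with a root mean square difference of 0.0824 on the log2 scale after subtracting control means. Itga3 and Itgb4 followed at 0.177, and Lama3 and Itgb1 were the farthest apart (0.817).

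Ratios of FPKM between chains or subunits of 1 molecule were read in each library, and in 3 of 4 the groups did not overlap. How often ratios of other gene pairs do so was not computed, so nothing is read from this count. The ratio of Itga6 to Itgb4 was 1.06, 1.21 and 1.21 in controls and 1.00, 0.845 and 0.653 in the PGC group. The α6 transcript thus exceeded its β4 partner in every control, was level with it in replicate 4, and fell short of it in replicates 5 and 6. The ratio of Itgb1 to the sum of its partners Itga2, Itga3 and Itga6 was 1.71, 1.36 and 1.55 in controls and 1.18, 1.11 and 0.807 in the PGC group. The groups did not overlap in either ratio.

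In the hemidesmosomal laminin, Lama3 was scarcer than Lamb3 in all 6 libraries, at 0.0470, 0.0371 and 0.0414 of Lamb3 in controls. In the PGC group the ratio was 0.138, 0.0901 and 0.131, above every control. Itgb6 to Itgav gave 1.39, 1.42 and 1.69 in controls and 1.33, 1.26 and 2.10 in the PGC group, where the groups overlapped. These ratios were not tested, and 3 against 3 libraries allow no two-sided exact p under 0.1.

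**Figure D3:**
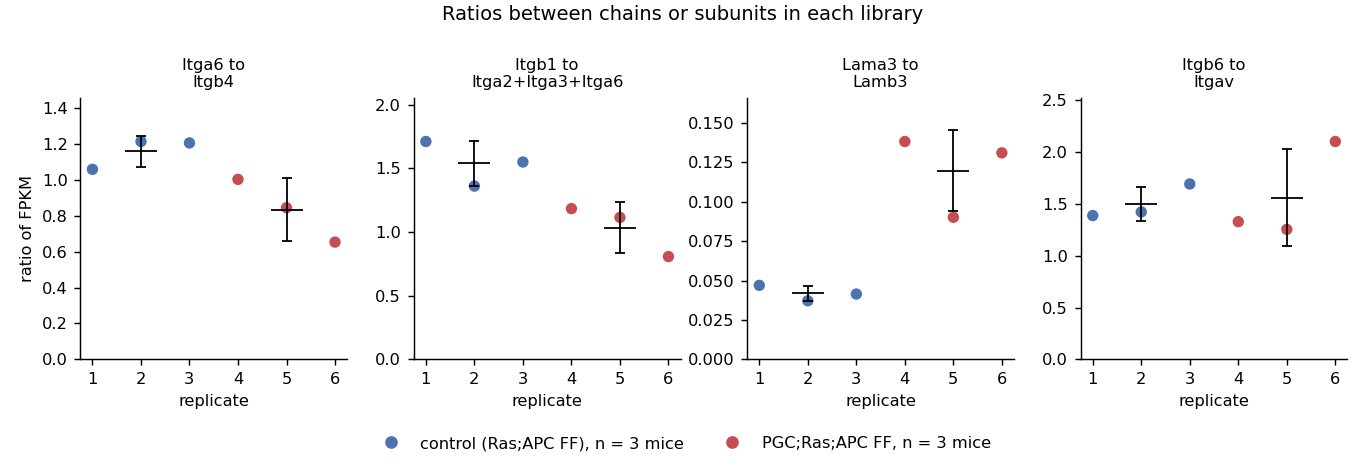
Ratio of FPKM between chains or subunits of 1 ligand or receptor (vertical axes, from 0) in each of the 6 libraries (horizontal axes), with the group mean and SD (n = 3). The groups do not overlap in the first 3 panels, where the PGC libraries lie lower except for Lama3 to Lamb3, and overlap for Itgb6 to Itgav.

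Corpus tissue holds muscle, vessels and stroma beside the glands, and in such bulk samples fewer cells of a type and less RNA per cell cannot be told apart. Of 8 simple epithelial markers 8 had a positive log2 change (median 1.14), and 0 passed over all genes. All 8 were higher at an unadjusted limma p under 0.05, as were 31.8% of all genes. Cldn4 and Cldn7 reached 1 FPKM in the PGC libraries only and so were tested through the group where they were high. These 2 genes lend no support to the count or to the median of 1.14. Without replicate 6 the markers tested were 6 (median 0.74), and 3 rose, against 7.17% of all genes. Krt7, Cldn4 and Cldn7 had log2 changes of 3.78, 4.14 and 3.43, above the other 5 markers. The adhesion molecule Epcam was at 60.5 ± 12.3 FPKM in controls and 169.7 ± 107 in the PGC group, and the keratin Krt19 at 1041 ± 96.4 and 2049 ± 419 (SD, n = 3 each). Of 8 smooth muscle markers 8 had a negative log2 change (median -1.15, 0 past the threshold). Without replicate 6, 6 of them fell, where 106 of 11600 genes did. Their summed level was 1959 to 3529 FPKM in controls and 893 to 1311 in the PGC group. The 8 endothelial markers had a median of 0.03 and the 7 fibroblast markers one of 0.29, beside 0.26 for all genes tested. Parietal and chief cell markers, also of the glands, went the other way from the simple epithelial markers in the fit of all 6 libraries. Of 8 tested 0 had a positive log2 change (median -0.89), and 0 were lower at an unadjusted limma p under 0.05. Without replicate 6 their median was -0.25, and their directions were mixed. Gif, Chia1 and Bhlha15 were then at 0.58, 0.56 and 0.27, while the other markers tested stayed negative. Of 6 leukocyte markers tested 6 had a positive log2 change (median 0.70, 0 past the threshold). At an unadjusted limma p under 0.05, 4 of them were higher, against 31.8% of all genes. Among these 4, Cd79a reached 1 FPKM in control replicate 2 and the PGC libraries only, and lends no support to this count. The summed level of all 7 listed was 50.4 to 103.7 FPKM in controls and 63.7 to 210.2 in the PGC group. Of 3 adipocyte markers tested 2 were called lower over all libraries, as were 5 of all 11857 genes. The fat-cell hormone gene Adipoq fell from 3.78 ± 1.08 to 0.10 ± 0.13 FPKM (limma adjusted p = 0.0103) and Cfd, adipsin, from 15.2 ± 2.72 to 0.717 ± 0.53 (0.00908), while the other tested marker, Cidec, had a log2 change of -0.10. Adipoq reached 1 FPKM in controls only, and Cfd in controls and replicate 5. The filter thus let them in mainly through the group where they were high, and nothing is read from these calls. The part of these shifts in the changes of the 9 genes was not tested.

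The 9 genes were also set against 5 epithelial genes, without Krt7, Cldn4, Cldn7 or the parietal and chief cell markers. The geometric mean FPKM of Epcam, Cdh1, Krt8, Krt18 and Krt19 was 315, 352 and 316 in controls and 500, 556 and 844 in the PGC group. On the log2 scale, the ratio of Itga2 to this level was -11.5, -11.5 and -11.6 in controls and -8.61, -9.67 and -7.57 in the PGC group, a mean difference of 2.92. For Lama3 the difference was 1.14, with -8.15, -8.36 and -8.33 in controls and -6.62, -7.73 and -7.08 in the PGC group. Both were higher in every PGC library, as were 1.51% of all genes tested. That share is no background for Itga2, which was not among the genes tested. Its control values, 0.10 to 0.12 FPKM, lie near the rounding to 2 decimals, so the size of its difference is uncertain.

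Lower in every PGC library, relative to the epithelial genes, were Itgb1 (difference -0.63), Lamb3 (-0.36) and Itga6 (-0.34). So were 72.7% of all genes tested, and nothing is read from these 3. For each of these 5 genes the exact two-sided permutation p was 0.1, the smallest the design allows. Itgb4 (0.16, exact p = 0.3), Itga3 (0.19, 0.4), Lama5 (0.34, 0.5) and Itgb6 (-0.54, 0.2) overlapped between groups. Without replicate 6 the differences were 2.40 for Itga2, 1.11 for Lama3, -0.51 for Itgb1, -0.32 for Lamb3 and -0.26 for Itga6. Those of Lama5, Itga3 and Itgb4 shrank to 0.055, 0.059 and 0.068, and that of Itgb6 was -0.73. Epcam itself was at 104, 112 and 293 FPKM in replicates 4 to 6. Relative to Epcam alone, Itgb4, Itga3 and Lama5 turned to -0.26, -0.23 and -0.08, while Itga2 (2.50), Lama3 (0.71) and the 3 lower genes kept their sign. The exact permutation p of these 3 was then 0.2 for Lamb3 and 0.1 for Itgb1 and Itga6.

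**Figure D4:**
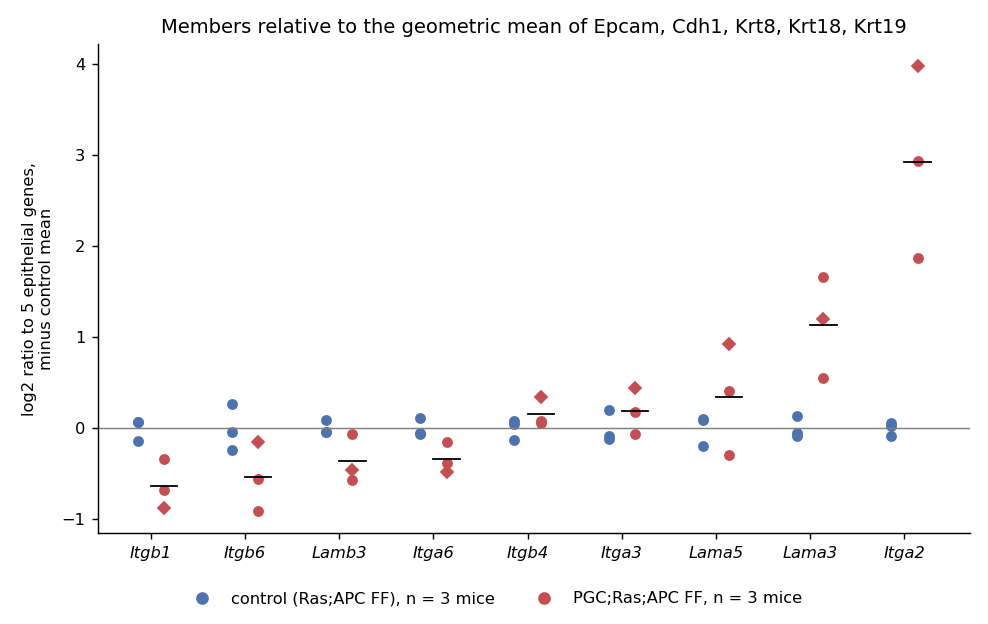
Log2 ratio of each gene's FPKM to the geometric mean FPKM of 5 epithelial genes, minus the control mean (vertical axis), for the 9 genes in order of the mean difference (horizontal axis). Points are single libraries, diamonds replicate 6, and black lines the PGC;Ras;APC FF mean. Itga2 and Lama3 lie above all controls, and Itgb1, Lamb3 and Itga6 below them.

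Squamous epithelium, which lines the mouse forestomach and is rich in Itga6, Itgb4 and the Lama3 laminin, was read by 11 markers. Their summed level was 0.70 to 1.37 FPKM in controls and 4.45 to 15.41 in the PGC group. The defining basal markers were near 0 in all 6 libraries, with Krt5 at most 0.10, Krt14 at most 0.22 and Trp63 at most 0.01 FPKM. Among the suprabasal markers, Ivl was at 1.14, 0.55 and 8.50 FPKM in the PGC group and at most 0.01 in controls, and Krt4 and Krt6a, at most 0.37 and 0.41, were also higher in every PGC library. Krt13 was at 2.34, 3.01 and 4.63 FPKM in the PGC group and at most 0.83 in controls. Krtdap (at most 0.27 FPKM), Sbsn (at most 0.94) and Dsg3 (at most 0.29) overlapped between groups. In all, 4 of the 11 markers were higher in every PGC library, as were 42.7% of all genes tested. Of the 11 only Krt13 was tested, and it reached 1 FPKM in the PGC libraries only, so nothing is read from this count. Itga2 is also a platelet gene, and the summed level of 5 platelet markers was 4.45 to 7.71 FPKM in controls and 6.09 to 8.43 in the PGC group. Of these, Gp9 was higher in every PGC library (0.34 to 0.60 against 0.67, 1.31 and 1.93 FPKM), and Itga2b, Gp1ba, Pf4 and Ppbp overlapped. The part of squamous and platelet RNA in the results was not tested.

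Genes that work with the 9 were read as 9 lists, in which 0 of 53 tested genes passed over all libraries (limma, 18 higher and 3 lower at an unadjusted p under 0.05) and 4 rose without replicate 6 (Itgb7, Sdc1, Col18a1 and Tgfb1). Over all genes the shares higher were 31.8% and 7.17%, close to those of the lists. Among controls, Itgb7 reached 1 FPKM in replicate 2 only and Itgax in replicate 1 only. Both were thus tested mainly through the PGC group, where they were high, and lend no support to these counts. The other laminin chains read here had a median log2 change of 0.06 over 5 tested genes, of which 0 passed (limma, 0 at an unadjusted p under 0.05). The most abundant were Lamc1, the common gamma chain (8.77 ± 1.06 and 11.5 ± 3.20 FPKM in controls and the PGC group, SD, n = 3 each), Lamb2 (9.77 ± 0.73 and 10.3 ± 0.84) and Lamb1 (6.70 ± 1.63 and 9.23 ± 1.33). Basement membrane scaffold genes had a median of 0.09 over 9 tested. Col4a1 and Col4a2, chains of the network-forming collagen, had log2 changes of 0.26 and 0.09, whereas Col18a1, whose end is released as endostatin, was at 11.1 ± 2.48 and 40.9 ± 20.1 FPKM (log2 change 1.71 ± 0.33, limma adjusted p = 0.0850).

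The 5 other integrin alpha subunits tested had a median of -0.17, led by Itga5 (a fibronectin receptor subunit, log2 change -0.10), Itgav (0.31) and Itga7 (a muscle laminin receptor subunit, -0.41). Of the 3 other beta subunits (median 0.37), Itgb5 was at 29.9 ± 2.46 and 39.3 ± 6.80 FPKM, and Itgb7, a lymphocyte subunit, at 0.947 ± 0.0611 and 2.34 ± 1.03, with Itgb3 at a log2 change of 0.20. The leukocyte integrins Itgb2 and Itgax had log2 changes of 0.73 and 1.18. Other laminin receptors had a median of 0.72 over 5 genes. The heparan sulfate proteoglycan Sdc1 was at 39.6 ± 5.63 and 107.2 ± 59.1 FPKM (log2 change 1.29) and its relative Sdc4 at 46.6 ± 4.99 and 66.1 ± 22.4. Rpsa was at 420 ± 37.1 and 712 ± 230 FPKM. Rpsa is also a ribosomal protein gene with many processed copies, so its level is uncertain.

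Of the hemidesmosome partners, Cd151, a tetraspanin bound to laminin-binding integrins, was at 59.5 ± 9.0 and 79.6 ± 17.2 FPKM, and Plec, the plakin that ties Itgb4 to keratin, at 12.8 ± 1.64 and 17.6 ± 5.01. Dst, the other plakin gene, was at 5.40 ± 0.54 and 3.49 ± 0.50, lower in every PGC library (log2 change -0.52 ± 0.14, limma adjusted p = 0.0867). Dst is also expressed in nerve and muscle. Col17a1, the transmembrane collagen of squamous hemidesmosomes, was at most 0.02 FPKM in all 6 libraries. The 13 integrin adapters and kinases had a median of 0.08, and the most abundant, Ilk, Zyx and Parva, had log2 changes of 0.08, 0.66 and -0.01.

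Around the partner of Itgb6, ligand genes had a median of 0.59 over 8 tested. Tgfb1, whose latent product the αv and β6 pair activates, was at 7.61 ± 0.69 and 19.2 ± 9.71 FPKM (log2 change 1.13 ± 0.30, limma adjusted p = 0.0850). Fn1 was at 20.2 ± 1.30 and 37.4 ± 16.3 FPKM, and Spp1, osteopontin, at 71.6 ± 47.2 and 155.1 ± 21.5. None of these passed over all libraries.

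**Figure D5:**
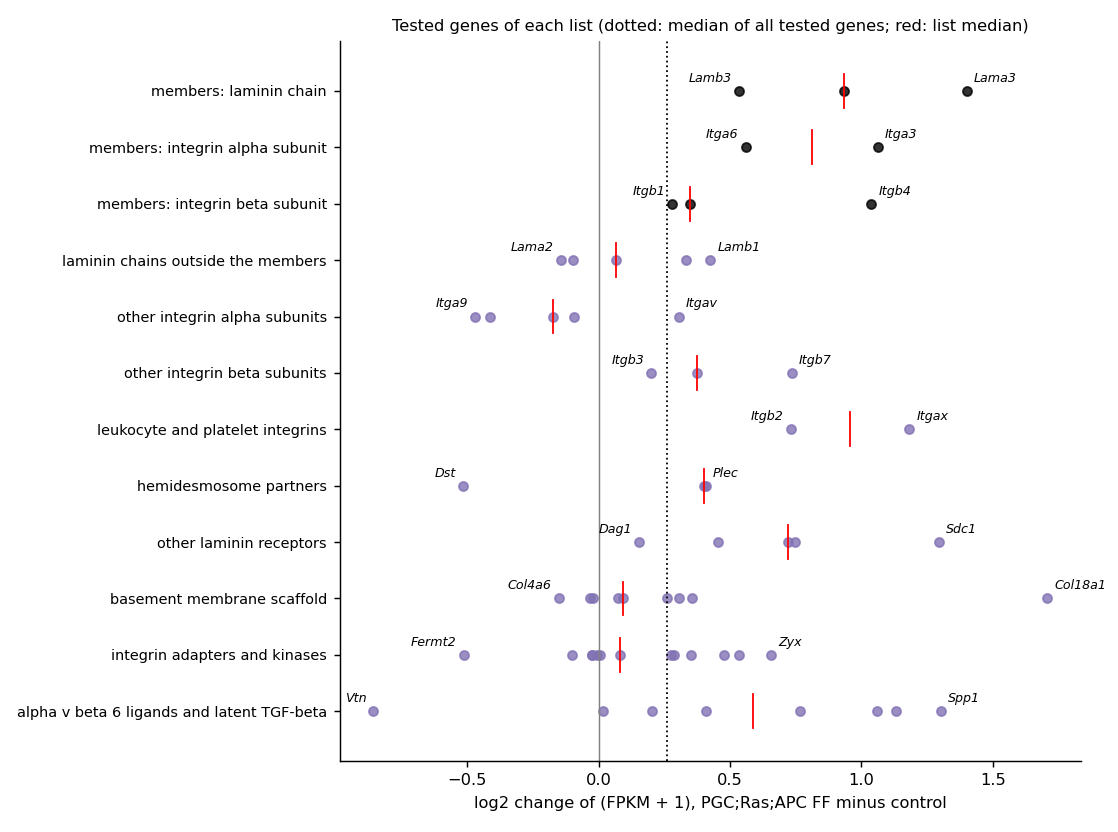
Log2 change of FPKM + 1 (horizontal axis, PGC;Ras;APC FF minus control) of every tested gene in the 3 classes of the 9 genes (black) and in the 9 partner lists (violet), with the lowest and highest gene of each row named. Red bars are list medians and the dotted line is the median of all genes tested, 0.26. Col18a1 lies far to the right of the other genes in its row.

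The tested genes whose profiles over the 6 libraries lay closest to each of the 8, outside the 9, are given by the same root mean square difference. Among those of Itga6 were Esrp1 (0.0475) and Obfc1 (0.0495), and for Itgb1 Pip4k2b (0.0226) came first. Closest to Itga3 was Fam129b (0.059), and closest to Itgb4 were Chad (0.0796) and Slc7a7 (0.0802). For Lama3 they were Stc1 (0.0905), Cd79a (0.119) and Hsd11b2 (0.156), and for Lama5 Sh3rf1 (0.0752). Itgb6 was matched best by Angptl4 (0.0616). With 11857 genes and 6 libraries, close profiles describe these libraries only.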

How the data were processed

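RNA of stomach corpus was sequenced in 6 libraries, 1 mouse each. The deposited values are FPKM rounded to 2 decimals, computed by the authors. Per the submitters' processing notes, STAR and featureCounts were used on mm10. The sources used here give neither their versions nor the annotation nor how counts became FPKM. Total reads are unknown, so no counting interval is given.

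From these values, log2(FPKM + 1) entered a limma model (version 3.58.1, under R 4.3.3) with genotype as the 1 term, a trended eBayes prior and two-sided p-values. It covered 11857 genes reaching 1 FPKM in 3 or more libraries. Log2 changes carry the pseudocount of 1 and so run low for weakly expressed genes. The p-values were adjusted by Benjamini-Hochberg, threshold 0.05, with 7.72 degrees of freedom including the shared prior. The fit was tested on simulated data. Ratios to epithelial genes used an exact permutation test. Rows with names on more than 1 row (2 names) were kept apart.

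The members, lists and tests were chosen with earlier results of these data known. Partner genes named were those past the threshold or, where fewer than 2 passed, the 3 most abundant tested genes of a list. The squamous, platelet, adipocyte and parietal markers, Krt7, Krt19, Cldn4, Cldn7 and Col17a1 were named after their values were seen, as were the profile neighbours printed out of 3 per gene. Alternatives covered the pseudocount, the filter, scaling, robust fitting and each library left out. Lists had no set test. Some genes of the lists and ratios are not reported here.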

Additional observations from a re-analysis of the deposited data

How the results depend on the processing

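No paired analysis was possible because the groups share no replicate number. Of the 8 genes tested, Lama3, Lamb3, Lama5, Itga3, Itga6 and Itgb4 kept a positive log2 change in each of 13 alternatives. Itgb1 turned to -0.026, -0.094 and -0.083 under median-of-ratios scaling, quantile normalization and a total without the 50 most abundant genes, and Itgb6 to -0.039 without replicate 6 (also with the genes of all 6 libraries), against 0.59 without replicate 5. The median of the 8 lay between 0.43 and 0.93 across other settings (which include Itga2 where no filter was used), and between 0.46 and 0.93 with 1 library left out. The count of members higher, 0 with all 6 libraries, ranged from 0 to 3 with 1 library left out, and was 3 without replicate 6 when the genes of all 6 libraries were kept. Relative to Epcam alone, Lama5, Itga3 and Itgb4 were at -0.077, -0.23 and -0.26. Over all genes, 13 were higher and 5 lower. The higher count was 29 with a pseudocount of 0.1, 3 with no filter and 7 with robust fitting. The lower count was 10 after each of the 3 scalings. With 1 library left out, the higher count ranged from 0 to 832 and the lower from 0 to 106, both 0 without any 1 control (limma, 16.9% to 24.1% of genes higher at an unadjusted p under 0.05), and without replicate 6 over the genes of all 6 libraries they were 962 and 114. The cause was not tested. Chosen after seeing the data, the count of genes above every control stayed at 8 of 9 with any 1 library left out. This count includes Itga2, which was not among the genes tested, where the share was 44.2% to 53.3%. The count at an unadjusted limma p under 0.05 ranged from 4 to 6 of 8 (16.9% to 34.1% of all genes), and was 4 after each of the 3 scalings (13.2%, 12.1% and 9.94%).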
